A study of Homo sapiens with 2 samples.

Results

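The cytochrome P450 (CYP), UDP-glucuronosyltransferase (UGT), glutathione S-transferase (GST) and sulfotransferase (SULT) genes of a colon organoid culture were followed with and without inflammatory cytokines by single-cell RNA sequencing. Members were taken by gene symbol: CYP followed by a digit, UGT1 or UGT2, GST followed by A, M, O, P, T, Z or K and a digit, and SULT. Of 108 such genes among the 36601 listed, 57 reached 1 CPM (the UMI count of a gene scaled to a fixed total per library) in at least 1 library and were kept, and 51 did not. The 57 comprise 30 CYP, 7 UGT, 10 GST and 10 SULT symbols, and 3 of the CYP symbols (CYP1B1-AS1, CYP4A22-AS1 and CYP51A1-AS1) are antisense RNAs and not enzymes. The members were thus chosen by their level in each library: 43 reached the minimum in both libraries, 10 in CNT alone and 4 in 3CK alone, and those 14 had to lie on different sides of it. Closest inside the minimum were CYP24A1 at 0.923 CPM in CNT and 1.01 in 3CK, CYP2C8 at 0.865 and 1.05, and CYP26B1 at 1.08 and 0.653. Closest outside were CYP2E1 at 0.991 and 0.513 CPM, SULT1C3 at 0.952 and 0.214, and CYP46A1 at 0.933 and 0.428.

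The organoids of both groups derive from the established human iPS (induced pluripotent stem) cell line 1383D6. The iPS cells were taken through Activin A and then FGF2, embedded in Matrigel and differentiated with EGF, Forskolin, PD98059, 5-Aza-2'-Deoxycytidine and A-83, and the description of the medium ends there. The CNT library came from untreated organoids, and the 3CK library from organoids kept for 8 days with a cytokine mixture (IL-1β, TNF-α and IFN-γ). There is 1 library per group from 1 line, so no difference below has a replicate check, no test between groups was possible, and the 95% intervals cover counting error only.

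These 4 families carry out much of the body's chemical defence. CYP enzymes are haem proteins that oxidise drugs, steroids, bile acids and other lipids (phase I), and UGT, GST and SULT enzymes join glucuronic acid, glutathione or sulfate to the products (phase II), which makes them easier to excrete. In the gut the absorptive epithelium carries most of these enzymes, the liver has many more, and inflammatory cytokines are known to lower many of them in hepatocytes.

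After filtering, 2539 cells with 102932410 UMIs were kept in CNT and 1414 cells with 93483188 UMIs in 3CK, and no barcode was shared. Epithelial cells (EPCAM at least 2 UMIs per 10000) numbered 1694 in CNT and 1031 in 3CK, with median depths of 36407 and 73079 UMIs. Mesenchymal cells (COL1A1, COL1A2 and COL3A1 together at least 5 and EPCAM under 1 per 10000) numbered 590 and 125, with median depths of 21963.5 and 66171. In epithelial cells 3 UMIs were worth 0.0389 CPM in CNT and 0.0419 in 3CK. The treatment was visible in all 7 cytokine response genes checked, which were 2-fold or more higher in 3CK (CXCL10 at 0.376 CPM in CNT epithelial cells and 1772 in 3CK). Of the hindgut markers, CDX2 was at 80.4 and 83.1 CPM in epithelial cells and CDX1 at 14.8 and 13.2, and HOXA13 and HOXD13 were under 1 CPM. Hepatic markers were abundant in the same cells, with TTR at 64685 CPM in CNT and 19361 in 3CK, so the organoid label is kept here as the submitters gave it. The 8 hepatic markers (all lower in 3CK epithelial cells, 6 of them 2-fold or more) and the 7 enterocyte markers (7 of 7 2-fold or more lower, median log2 ratio -2.59) moved with the results below, and their part in them was not tested.

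The UGT, most SULT and the alpha-class GST genes were lower in the cytokine-treated library, while CYP symbols went either way. In the whole libraries, 25 of the 57 members were 2-fold or more lower in 3CK and 3 were 2-fold or more higher. Among all 17524 genes that reached 1 CPM, 11.5% were that much lower and 6.89% that much higher. The median log2 ratio of 3CK over CNT was -0.72 over the members and -0.06 over all genes. In epithelial cells 50 members reached 1 CPM, and 25 of them were 2-fold or more lower and 3 higher, where 12.1% of all genes were lower and 8.4% higher. Their median was -1.02, against 0.005 for all genes. The families differed: 7 of 7 UGT, 7 of 10 SULT, 4 of 10 GST and 7 of 23 CYP symbols were 2-fold or more lower, with medians of -4.00, -1.28, -0.63 and 0.07. The 3 that were higher, CYP1B1, CYP1B1-AS1 and CYP2J2, are all CYP symbols. Members passing 1 CPM in only 1 library had to differ, so these counts describe the set and support nothing by themselves.

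**Figure D1:**
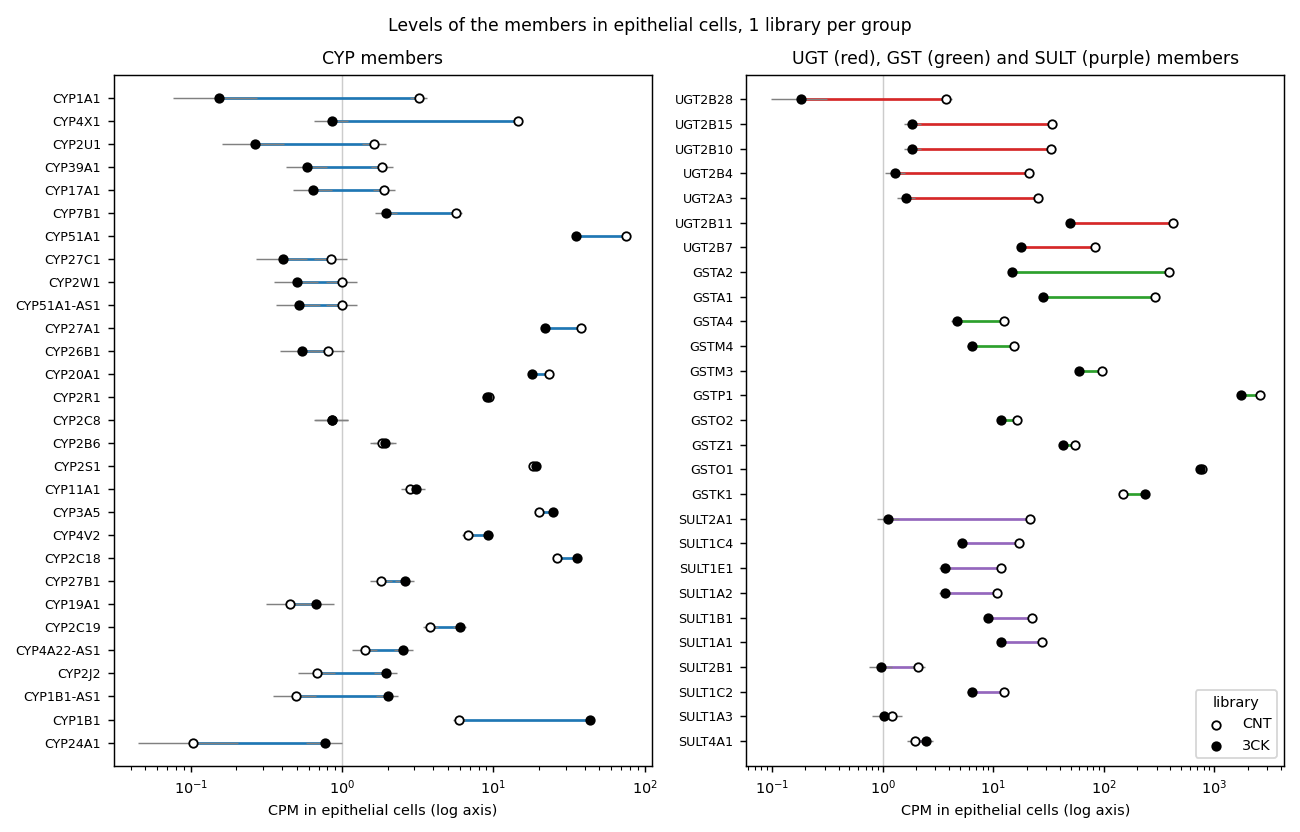
Level of 56 of the 57 members in epithelial cells in CPM (horizontal log axis), open circles for CNT and filled circles for 3CK, with grey 95% counting intervals, 1 library per group and the vertical line at 1 CPM. UGT members and SULT2A1, GSTA1, GSTA2, CYP1A1, CYP4X1 and CYP2U1 show long shifts to lower values in 3CK, GSTP1, GSTO1 and GSTK1 stay above 100 CPM in both libraries, and CYP1B1 moves the other way, from 5.97 to 43.3 CPM.

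Glutathione S-transferases supplied most of the transcripts, 374039 of the 463488 member UMIs in CNT and 243001 of 276255 in 3CK. The pi-class enzyme GSTP1, the form usual in developing and proliferating epithelium, was the most abundant member. It stood at 2572 CPM in CNT epithelial cells and 1748 in 3CK, a log2 ratio of -0.56 (interval -0.57 to -0.55). The omega-class enzyme GSTO1 was at 775 CPM and 740 CPM (-0.07), and the kappa-class GSTK1, which resides in mitochondria and peroxisomes, at 148 and 236 CPM (0.67). None of these abundant forms changed 2-fold. The alpha class, the main GST form of liver and small intestine, gave the largest differences of the family. GSTA1 was at 292 CPM (288 to 296) in CNT and 28.2 (26.9 to 29.4) in 3CK, 10.4-fold lower. GSTA2 was at 391 CPM and 14.9 CPM, 26.2-fold lower (log2 ratio -4.71, interval -4.80 to -4.62), the steepest fall among members of at least 10 CPM. With each cell given equal weight the ratio of GSTA2 was -4.12. GSTA4, the alpha-class form that conjugates lipid peroxidation products, was at 12.6 and 4.66 CPM (2.71-fold lower). GSTA2 exceeded GSTA1 in CNT and was the lower of the pair in 3CK. Among mu-class genes, GSTM4 was at 15.3 and 6.37 CPM (-1.26) and GSTM3 at 97.1 and 60.1 (-0.69). GSTO2 (16.5 and 11.7 CPM) and GSTZ1 (54.5 and 42.4 CPM), which acts in tyrosine breakdown, were within 2-fold.

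GSTA1 and GSTA2 are neighbours on chromosome 6 of GRCh38, and with GSTA4 they span chr6:52750087-52995304. Their promoters are shown because this pair fell together and the sequences are nearly the same: the 250 bases before the RefSeq starts (GRCh38.p14) are 97.2% identical. The 190 bases before each start follow, from chr6:52803817-52804006 and chr6:52763476-52763665, both on the minus strand. Capitals mark the motif GTTAAT as read on the opposite strand, 180 to 175 bases before the start.
GSTA1: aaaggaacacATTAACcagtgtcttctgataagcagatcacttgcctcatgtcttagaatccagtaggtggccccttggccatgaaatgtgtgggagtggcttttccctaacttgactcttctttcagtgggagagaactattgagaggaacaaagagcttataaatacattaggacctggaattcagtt
GSTA2: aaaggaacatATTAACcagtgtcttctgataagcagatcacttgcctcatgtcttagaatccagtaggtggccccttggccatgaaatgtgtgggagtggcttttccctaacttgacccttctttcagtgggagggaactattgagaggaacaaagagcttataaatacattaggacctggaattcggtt
The motif, searched on both strands, lay in 6.22% of 27305 RefSeq promoters of 250 bases. Among the 12009 whose genes reached 1 CPM in epithelial cells of either library it lay in 3.70%. Of the 43 members with a promoter entry it lay in 4, GSTA1, GSTA2, SULT1E1 and CYP3A5. CYP3A5 was not among the members that fell. The last 500 bases of the GSTA1 and GSTA2 transcripts (GENCODE 44) are 92.6% identical but share no run of 90 bases, the read length assumed here. In single epithelial cells of at least 10000 UMIs the pair varied together, with Spearman's rho of 0.776 over 1027 CNT cells and 0.536 over 743 3CK cells. These are cells of 1 library each, with shared depth.

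The UGT2 genes fell furthest as a family. They encode enzymes that glucuronidate steroids, bile acids and drugs, and the 7 members lie together at chr4:68646597-69526014. UGT2B11, the most abundant, was at 423 CPM (419 to 428) in CNT epithelial cells and 49.8 (48.2 to 51.5) in 3CK, 8.5-fold lower. UGT2B7, the form that handles morphine and many other drugs, was at 82.5 and 17.9 CPM (4.61-fold lower), the smallest fall of the 7. UGT2B15, an androgen-conjugating form, was at 34.1 and 1.86 CPM, and UGT2B10 at 33.6 and 1.86 CPM, which are 18.4-fold and 18.1-fold lower. UGT2A3 (25.5 and 1.64 CPM), UGT2B4 (20.8 and 1.30) and UGT2B28 (3.76 and 0.182) were 15.6-fold, 16.0-fold and 20.7-fold lower. The counting intervals of the 2 libraries did not overlap for any of the 7, which is common at this depth. Of all 16840 genes of at least 1 CPM in epithelial cells, the interval of the ratio lay below 0 for 6662 and above 0 for 6689. What remained of some of them in 3CK sat in few cells: 1 cell held 37.6% of the 133 UMIs of UGT2B10 and 1 held 24.8% of the 133 of UGT2B15. With each member's leading cell left out of each library, the log2 ratio of UGT2B10 went from -4.18 to -4.82. With each cell given equal weight UGT2B28 was at -2.10 and UGT2B4 at -3.00, against -4.37 and -4.00.

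Promoters of 3 of these genes are shown because the 3 genes fell and share a stretch of sequence there. Each line gives 120 bases before the RefSeq start, UGT2B10 from chr4:68815874-68815993 (plus strand), UGT2B11 from chr4:69214749-69214868 (minus) and UGT2B15 from chr4:68670653-68670772 (minus). Capitals mark the longest run common to the 3, of 18 bases.
UGT2B10: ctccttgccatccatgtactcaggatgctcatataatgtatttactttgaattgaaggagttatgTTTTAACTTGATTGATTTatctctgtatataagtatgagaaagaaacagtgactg
UGT2B11: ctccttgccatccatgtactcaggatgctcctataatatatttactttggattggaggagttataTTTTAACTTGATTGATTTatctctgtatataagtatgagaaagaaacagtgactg
UGT2B15: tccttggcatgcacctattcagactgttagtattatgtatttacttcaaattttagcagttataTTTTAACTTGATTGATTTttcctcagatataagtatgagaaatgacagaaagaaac
The run begins 55 bases before the start in UGT2B10 and UGT2B11 and 56 in UGT2B15. Searched on both strands, it was in 3 of the 27305 promoters, these same ones. It was picked as common to the 3, so its presence in them was set in advance. UGT2B4 and UGT2B28 had no promoter entry and were not searched. Over 250 bases UGT2B10 and UGT2B11 are 90.2% identical, and UGT2B7 is 65.1% identical to UGT2B11. UGT2B11 and UGT2B7, which fell least, were correlated over single cells with rho of 0.424 in CNT and 0.304 in 3CK.

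None of the 9 UGT1A genes reached the minimum, the highest being UGT1A1 with 81 UMIs in CNT and 29 in 3CK. All 9 use the same last exon, chr2:233772262-233773300, and their last 500 bases are the same sequence, so a 3' tag from there cannot be given to 1 of them. How such tags were counted is not given in the sources used here, and the UGT1A level is uncertain for that reason. SULT1A3 (1.22 and 1.02 CPM) is uncertain likewise, since 97.3% of the 90-base words in its last 500 bases occur in SULT1A4.

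Sulfotransferases formed a graded set. SULT2A1, the hydroxysteroid and bile acid sulfotransferase typical of liver, adrenal and small intestine, was at 21.4 CPM (20.4 to 22.5) in CNT epithelial cells and 1.12 (0.887 to 1.39) in 3CK, a log2 ratio of -4.26 and 19.2-fold lower. The other 6 that passed 2-fold lay closer together. SULT1A1, which sulfates phenols, was at 27.6 and 11.8 CPM (-1.23), and SULT1A2 at 10.7 and 3.66 (-1.55). SULT1B1, known for thyroid hormone and a main form of the gut, was at 22.2 and 8.88 CPM (-1.32). SULT1C4 was at 16.9 and 5.24 CPM (-1.69), and SULT1E1, the estrogen sulfotransferase, at 11.7 and 3.68 (-1.67). SULT2B1, which sulfates cholesterol and related sterols, was at 2.09 and 0.965 CPM (-1.11). SULT1C2 (12.4 and 6.39 CPM, -0.96) fell just short of 2-fold, and the brain form SULT4A1 was at 1.95 and 2.47 CPM (0.35). SULT1B1 and SULT1E1 are neighbours at chr4:69721167-69860145, near the UGT2 genes. The promoter of SULT1E1 is given because it holds the same motif as the GSTA pair, in capitals, 104 to 99 bases before the start (chr4:69860146-69860265, minus strand).
SULT1E1: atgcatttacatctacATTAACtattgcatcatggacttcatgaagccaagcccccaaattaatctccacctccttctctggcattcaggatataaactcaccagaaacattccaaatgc
SULT1E1 and the GSTA pair differed in the size of the fall, 3.18-fold against 10.4-fold and 26.2-fold.

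The CYP genes did not move as a group. In epithelial cells 11 of the 23 symbols of at least 1 CPM were below and 12 above a log2 ratio of 0. CYP1A1, the enzyme of polycyclic aromatic hydrocarbon oxidation that the aryl hydrocarbon receptor AHR induces, was at 3.20 CPM (2.82 to 3.63) in CNT and 0.154 (0.0768 to 0.275) in 3CK, 20.8-fold lower. CYP1B1, of the same CYP1 family and induced by the same receptor, was at 5.97 CPM (5.43 to 6.54) and 43.3 (41.8 to 44.9), 7.26-fold higher and the largest rise of any member of at least 1 CPM. AHR itself was at 67.8 and 76.7 CPM (0.18) and its repressor AHRR under 1 CPM. The antisense RNA CYP1B1-AS1 was at 0.493 and 2.00 CPM (2.02), and its gene overlaps CYP1B1 on the opposite strand. The strand setting is not given in the sources used here, and whether reads of the pair were kept apart was not checked. CYP1A1 is shown for the xenobiotic response element core GCGTG, in capitals, 57 to 53 bases before its start, in the 100 bases of chr15:74725529-74725628 (minus strand).
CYP1A1: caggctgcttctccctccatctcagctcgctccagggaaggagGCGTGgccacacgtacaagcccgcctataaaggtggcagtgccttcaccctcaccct
On both strands the core lay in 31.9% of the 27305 promoters and in 10 of 43 members. Among the 12009 promoters whose genes reached 1 CPM in epithelial cells of either library it lay in 43.2%. CYP1B1 had no promoter entry and was not searched. Further motifs searched on both strands were the antioxidant response element TGACNNNGC (11.0% of promoters, 8 of 43 members), HNF4 as CAAAGTCCA (0.293%, 2 of 43), GAS as TTCNNNGAA (6.78%, 2 of 43) and the interferon-stimulated response element, ISRE (3.07%, 0 of 43). Over the 12009 promoters these shares were, in the same order, 11.9%, 0.308%, 5.77% and 2.48%.

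Several other CYP enzymes were lower. CYP51A1, the lanosterol demethylase of cholesterol synthesis, was the most abundant at 74.8 CPM in CNT epithelial cells and 35.4 in 3CK (-1.08). CYP4X1 was at 14.5 and 0.853 CPM (17.0-fold lower). CYP7B1 and CYP39A1, oxysterol hydroxylases of bile acid synthesis, were at 5.67 and 1.96 CPM (-1.53) and 1.84 and 0.587 CPM (-1.65). CYP27A1, the mitochondrial sterol 27-hydroxylase, was at 37.6 and 21.8 CPM (-0.79). CYP2U1, a fatty acid hydroxylase, was at 1.63 and 0.266 CPM (-2.62, and -3.31 with equal weight for each cell). The steroid enzyme CYP17A1 was at 1.89 and 0.643 CPM (-1.56), but 1 CNT cell held 45.9% of its 146 UMIs. Its ratio was -0.66 with likely doublets removed and -4.02 in epithelial cells with almost no collagen.

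Over all epithelial cells together, CYP3A5 and the CYP2C genes given here stayed within 2-fold. CYP3A5, the CYP3A form common in gut, was at 20.1 CPM in CNT and 24.9 in 3CK (0.31), and CYP3A4 had 15 and 6 UMIs in the whole libraries. Among CYP2C genes, CYP2C18 was at 26.2 and 35.9 CPM (0.45), CYP2C19 at 3.83 and 5.98 (0.64) and CYP2C8 at 0.856 and 0.853. CYP2S1 (18.2 and 19.0 CPM), CYP2B6 (1.83 and 1.91), CYP2R1, a vitamin D 25-hydroxylase (9.41 and 9.10), and CYP20A1 (23.3 and 17.9) likewise stayed within 2-fold. CYP4V2, a fatty acid hydroxylase, was at 6.79 and 9.24 CPM (0.45). The arachidonic acid epoxygenase CYP2J2 was at 0.688 and 1.94 CPM, 2.83-fold higher. The vitamin D 24-hydroxylase CYP24A1 had 8 and 55 UMIs in epithelial cells, with 69.1% of the 55 in 1 cell, so no direction is read from it. CYP27B1, which makes active vitamin D, was at 1.82 and 2.60 CPM (0.52). CYP19A1, the aromatase of estrogen synthesis, and CYP27C1, a retinoid desaturase, stayed under 1 CPM in epithelial cells of both libraries.

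Shares of cells with a UMI were taken after thinning every cell to 5000 UMIs. This kept 1076 epithelial cells of CNT and 789 of 3CK, and 618 and 242 shallower ones were left out. A UMI of GSTA1 was found in 46.2% of the CNT cells (43.2% to 49.2%) and 9.38% of the 3CK cells (7.44% to 11.6%), and one of GSTA2 in 46.0% and 4.31%. For UGT2B11 the shares were 53.0% and 12.3%, and for UGT2B7 26.8% and 5.96%. CYP1B1 went the other way, from 2.04% (1.29% to 3.08%) to 16.2% (13.7% to 19.0%). Without thinning, GSTA1 was detected in 57.7% and 25.1% of cells and CYP1B1 in 8.5% and 41.6%. In mesenchymal cells thinned alike (321 and 108 cells, from median depths given above), UGT2B11 was found in 4.98% of CNT cells and in 0 of 108 in 3CK, and GSTA1 in 1.87% and 0 of 108.

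In CNT the members divided by cell class, with 31 of 57 at least 2-fold higher in epithelial than in mesenchymal cells, 8 at least 2-fold higher in mesenchymal cells and 18 within 2-fold. In 3CK the numbers were 29, 7 and 21, with UGT2B28 (13 epithelial and 0 mesenchymal UMIs) counted as within 2-fold because 0 was set to 3 UMIs. The same shares over all genes were not computed, so these counts do not set the members apart from other genes. Several members that fell were nearly absent from mesenchyme: in CNT mesenchymal cells GSTA1, GSTA2 and UGT2B11 stood at 2.32%, 2.52% and 2.67% of their epithelial level. EPCAM, by which the classes were cut, stood at 1.87%, TTR at 2.20% and APOA1 at 2.94%, and the 3 levels lie within the range of those markers. The keratin genes KRT8 and KRT18 did not follow, at 104% and 115% of their epithelial level in the same cells. UGT2B7 differed, with 41.4 CPM in CNT mesenchymal cells or 50.2% of its epithelial level. Higher in mesenchyme were CYP11A1, the cholesterol side-chain cleavage enzyme that begins steroid synthesis (28.1 against 2.83 CPM), CYP2W1 (8.90 against 0.999), CYP2U1 (6.98 against 1.63) and CYP1B1 (15.2 against 5.97).

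Between the libraries, mesenchymal cells showed 15 of 43 members of at least 1 CPM 2-fold or more lower in 3CK and 3 higher, where 16.4% of all genes were that much lower and 6.03% higher. The median was -0.42 over the members and -0.21 over all genes. With each cell given equal weight 29 of 51 members were lower, where 23.8% of all genes were, and with TMM factors 5 of 43 were higher, where 7.92% of all genes were. CYP1B1 was higher here too, at 15.2 CPM in CNT and 57.6 in 3CK (1.92, interval 1.71 to 2.13), as was GSTK1 at 69.5 and 147 CPM (1.08). GSTO1 was at 310 and 561 CPM (0.86), against a ratio of -0.07 in epithelial cells. SULT1C4, which in CNT was higher in mesenchyme than in epithelium (141% of the epithelial level), went from 23.9 to 3.76 CPM (-2.67, interval -3.21 to -2.17; -1.72 with equal weight for each cell). UGT2B7 went from 41.4 to 19.7 CPM (-1.07) and GSTA4 from 12.9 to 6.01 (-1.11). CYP11A1 stood at 28.1 and 18.6 CPM (-0.60). CYP27A1 was at 5.91 and 7.84 CPM (0.41, interval -0.04 to 0.84). The steep mesenchymal ratios of GSTA2 (-6.52, interval -11.83 to -4.03, 195 and 1 UMIs), UGT2B11 (-4.72, 224 and 4 UMIs) and GSTA1 (-3.98, 134 and 4 UMIs) rest on 1 to 4 UMIs in 3CK. That of GSTA2 was -10.74 with equal weight for each cell, -4.23 with collagen of at least 10 and -4.91 without the leading cells, where 3CK had no UMI left and was set to 3. That of UGT2B11 was -5.92, -4.44 and -5.69 in the same settings and -3.88 with the stricter barcode filter, and that of GSTA1 was -6.76 with equal weight and -3.13 with collagen of at least 10. Of the 15 lower members, 10 stood in CNT mesenchyme at 2.32% to 14.3% of their epithelial level. In the same cells 8 of 8 hepatic markers were 2-fold or more lower in 3CK (summed level 2417 and 480 CPM), as were 4 of 5 enterocyte markers of at least 1 CPM. Of the 8 mesenchymal markers 5 were 2-fold or more lower (summed level 10924 and 4883 CPM). The part of these markers in the members' values was not tested.

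**Figure D2:**
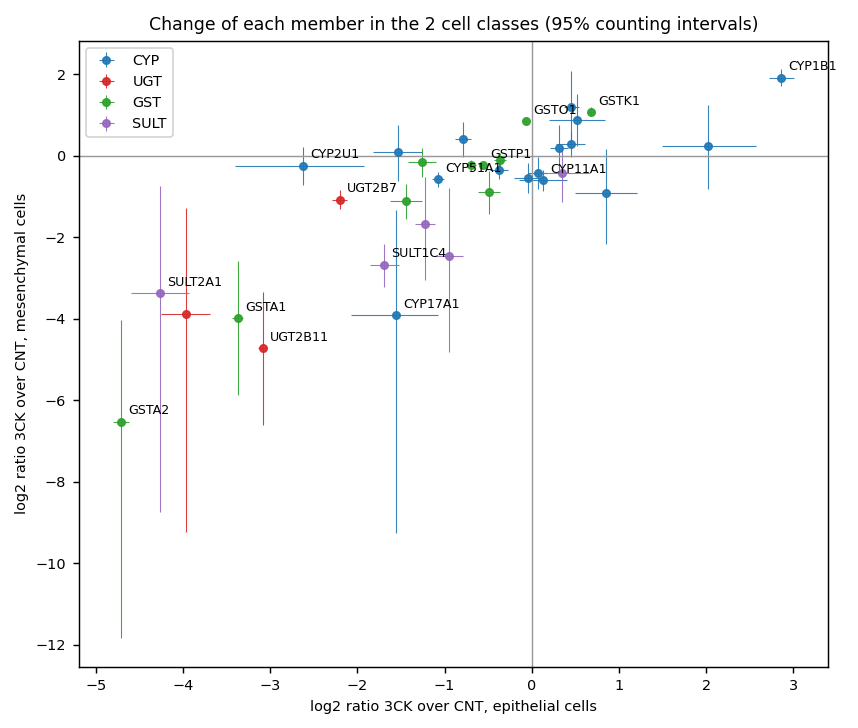
Log2 ratio of 3CK over CNT in epithelial cells (horizontal) and mesenchymal cells (vertical) for the 34 members of at least 1 CPM in both classes with UMIs in both libraries, coloured by family, with 95% counting intervals as bars. CYP1B1 lies highest in both directions (2.86 and 1.92), GSTA2 lowest (-4.71 and -6.52), and GSTO1 is near 0 in epithelial cells and at 0.86 in mesenchymal cells.

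Because hepatic markers fell with the members, epithelial cells of at least 10000 UMIs were divided by their TTR level, at the 2 values that split the CNT cells into 3 equal ranges (333 and 758 UMIs per 10000). The low, middle and high ranges held 342, 342 and 343 CNT cells and 612, 109 and 22 3CK cells, and 253 of 1027 CNT and 80 of 743 3CK cells lay within 0.25 log2 units of a boundary. In the low range 29 of 55 members were 2-fold or more lower in 3CK and 3 higher, where 18.5% and 5.5% of all genes were. In the middle range it was 19 of 49 lower and 3 higher, where 18.8% and 5.83% of all genes were. In the high range, with 22 cells in 3CK, it was 11 of 50 lower and 4 higher, where 12.7% and 9.37% of all genes were. GSTA2 was at 181 CPM in CNT and 7.64 in 3CK in the low range, 396 and 26.0 in the middle, and 567 and 174 in the high range. UGT2B11 was at 240 and 26.5 CPM in the low range, 474 and 109 in the middle, and 530 and 429 in the high range. Both genes thus rose with TTR within each library, and 3CK lay below CNT in every range. SULT2A1 was at 13.9 and 0.669, 23.7 and 2.91, and 25.5 and 4.38 CPM, lower in 3CK in all 3 ranges. CYP1B1 went against this order, at 10.0 and 44.6, 4.97 and 32.5, and 3.35 and 59.7 CPM, higher in 3CK in all 3.

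The high range rests on few cells. UGT2B10 was at 37.8 CPM there in both libraries, a log2 ratio of -0.002, but 1 of the 22 3CK cells held 50 of its 69 UMIs, and without the leading cell of each library the ratio was -1.77. On the same footing GSTA2 went from -1.71 to -2.52, UGT2B11 from -0.31 to -0.64, UGT2B15 from -0.42 to -1.73 and CYP1B1 from 4.16 to 3.43. SULT1C4 went from 1.00 to -0.65, with 32 of its 45 UMIs in 1 cell. The number of members 2-fold or more lower in the high range became 15 in place of 11, and 3 were higher in place of 4. Those 3 were CYP1B1, CYP2J2 and CYP51A1-AS1. The last 2 had no 3CK UMI left and passed 2-fold only because 0 was set to 3 UMIs, so no rise is read from them. By the same rule CYP1A1, CYP11A1 and CYP17A1 left the lower count, with no 3CK UMI left. Their ratios went from -2.56, -1.41 and -1.70 to -0.30, -0.03 and 0.64. Of the 4 counted higher at first, CYP2J2 had 2 UMIs in 3CK, CYP1B1-AS1 had 3, and CYP2B6 had 14, with 12 of them in 1 cell. The share of all genes was not recomputed without leading cells. The 22 cells also showed less of the cytokine response, with CXCL10 at 266 CPM against 1920 in the low range, GBP5 at 70.6 against 606 and IDO1 at 51.5 against 576. The part of that difference in the smaller ratios of the high range was not tested.

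**Figure D3:**
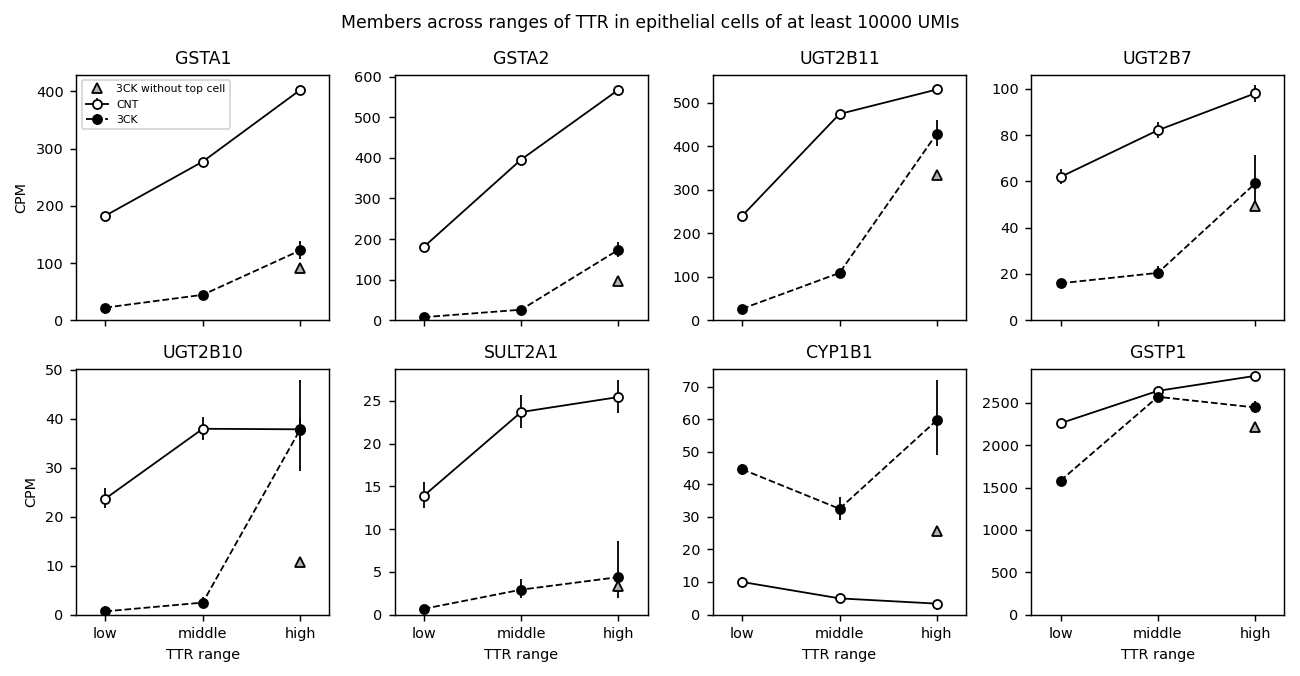
CPM of 8 members (vertical, linear from 0) in the low, middle and high TTR ranges of epithelial cells of at least 10000 UMIs, open circles for CNT and filled circles for 3CK with 95% Poisson intervals, and a grey triangle for the high 3CK value without the member's leading cell. GSTA1, GSTA2, UGT2B11, UGT2B7 and SULT2A1 lie lower in 3CK in each range, the filled UGT2B10 point of the high range drops from 37.8 to 10.7 CPM without 1 cell, and CYP1B1 lies higher in 3CK throughout.

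Dividing the same epithelial cells by summed enterocyte markers in place of TTR, a choice made after seeing the data, gave fuller ranges in 3CK: 407, 221 and 115 cells, against 342, 342 and 343 in CNT. The members 2-fold or more lower in 3CK numbered 24 of 53 in the low range (13.1% of all genes), 23 of 51 in the middle (13.4%) and 25 of 52 in the high range (13.8%). Those 2-fold or more higher numbered 8 (8.24% of all genes), 3 (9.49%) and 4 (9.03%). In the range richest in enterocyte markers GSTA1 was at 484 CPM in CNT and 54.2 in 3CK, GSTA2 at 627 and 29.6, UGT2B11 at 613 and 109, and UGT2B10 at 61.5 and 7.35. CYP1A1 was at 7.30 CPM there in CNT and had 1 UMI in 3CK. CYP1B1 was at 6.19 and 43.6, 5.33 and 43.1, and 6.16 and 41.5 CPM across the 3 ranges, with log2 ratios of 2.82, 3.01 and 2.75. Levels of the markers within a range may still differ between the libraries.

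Other genes of the same pathway were read from lists. Of 20 regulators, 16 reached 1 CPM in epithelial cells and 2 were 2-fold or more lower, a share near the 12.1% of all genes: CEBPA, a transcription factor of hepatocytes (54.4 and 22.1 CPM, -1.30), and NR0B2, the bile acid-responsive repressor SHP (5.23 and 2.45, -1.10). HNF4A, a nuclear receptor of liver and gut epithelium, was at 40.0 and 24.2 CPM (-0.72), and NFE2L2, the factor of the antioxidant response, was at 72.8 and 115 CPM (0.66). FOXA2, a factor of endodermal organs, was at 48.5 and 39.9 CPM (-0.28). None of the 12 electron partners and haem genes passed 2-fold in either direction (median 0.00). Their ratios in the more abundant genes ran from -0.52 in FDX1, the mitochondrial ferredoxin, to 0.60 in the cytochrome b5 gene CYB5B. CYB5A was at 201 and 142 CPM, CYB5R3 at 150 and 158, and HMOX2 at 93.0 and 138. By contrast, 13 of 26 further phase I enzymes were 2-fold or more lower and 3 higher (median -1.03), against 12.1% and 8.4% of all genes. The flavin monooxygenases FMO1 (11.4 and 0.0839 CPM, -7.08) and FMO5 (65.2 and 6.18, -3.40) were among the lowest ratios. ALDH2 (138 and 132 CPM), ADH5 (135 and 137 CPM) and NQO1 (93.0 and 65.8 CPM), the most abundant of that list, were within 2-fold, and CBR3 was higher (3.07 and 15.0 CPM, 2.29).

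Of 24 further phase II and cofactor genes, 5 were lower and 2 higher, against 12.1% and 8.4% of all genes, so the number higher is near the background. UGT3A1 was at 46.7 and 1.76 CPM (-4.73). NNMT, which methylates nicotinamide, rose from 90.2 to 822 CPM (3.19). The microsomal transferase MGST3 was at 751 and 455 CPM (-0.72) and MGST1 at 289 and 153 (-0.92), and the genes for sulfate donor synthesis, PAPSS1 and PAPSS2, had ratios of -0.24 and -0.20. Of 19 transporters, 7 were lower and 3 higher, against the same shares of all genes, with the bile acid importer SLC10A1 at 27.1 and 1.12 CPM (-4.60), the organic anion importer SLCO2B1 at 47.5 and 6.49 (-2.87), the exporter ABCG2 at 56.3 and 18.6 (-1.59) and the bile acid exporter subunit SLC51A at 18.8 and 42.2 (1.17). Its partner SLC51B (42.2 and 45.4 CPM) and the exporter ABCC3 (36.6 and 32.1 CPM) were within 2-fold.

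**Figure D4:**
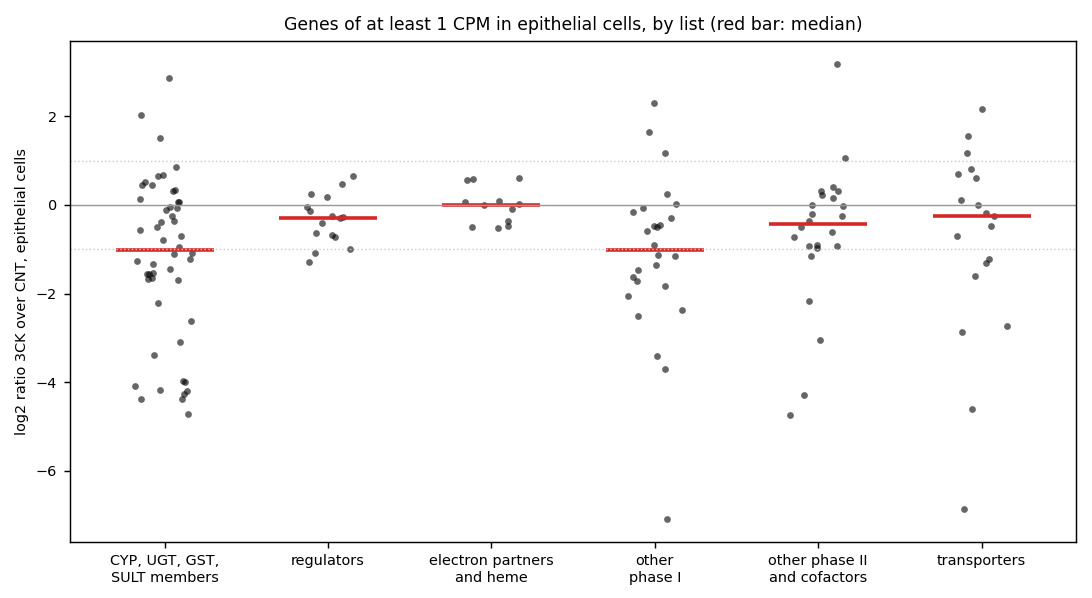
Log2 ratio of 3CK over CNT in epithelial cells (vertical) for every gene of at least 1 CPM in the member set and 5 pathway lists, 1 point per gene with random horizontal spread, red bars at the medians and dotted lines at 2-fold. The members and the further phase I enzymes have medians of -1.02 and -1.03, and the electron partners and haem genes lie within 2-fold around 0.00.

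Below the minimum, 28 of the 51 genes left out had a lower ratio in 3CK and 6 a higher one. The other 17 had too few UMIs for a ratio, 5 of them with none in either library. The same shares over all genes below the minimum were not computed, and some of these ratios rest on a few UMIs. No direction of the set is read from them. CYP4A11, a fatty acid omega-hydroxylase, counted 28 UMIs for CNT and 0 for 3CK, and CYP4Z1 had 50 and 8. The bile acid gene CYP7A1 had 1 and 3 UMIs, and CYP1A2, a liver enzyme, had 5 and 4. At this depth those genes were barely detectable in either library.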

How the data were processed

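Each of the 2 conditions was measured in 1 library of 10x Genomics 3' v3.1 single-cell RNA, about 8300 cells loaded per library per the labels. The deposited values are raw UMI counts per gene and barcode that the authors made with Cell Ranger 7.1.0, per the file headers; GRCh38 is the build per the submitters' processing notes, while for the annotation, the strand setting and intronic reads the sources used here give nothing. A 3' tag counts a molecule once whatever the transcript's length, so levels of different genes were compared in CPM.

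Barcodes with at least 500 genes and at most 20% mitochondrial UMIs were kept. UMIs were summed per library and cell class and divided by the class total (CPM). Sums carry exact Poisson intervals, the log2 ratio of 3CK over CNT an interval from the exact binomial share, and shares of cells Clopper-Pearson intervals, all at 95%. A library with 0 UMIs was set to 3 UMIs, and no ratio was formed where both had 3 or fewer. Called means 2-fold or more apart. Doublets were kept in the main values. With 1 library per group no test was made. Sums and ratios were tested on simulated counts first.

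The members, classes and lists were chosen with earlier results of these data known. Named members have at least 10 CPM in either library, are 2-fold apart in epithelial cells with at least 50 UMIs in the higher library, or are among the 5 largest or smallest mesenchymal ratios with at least 50 UMIs; others complete a subfamily or lie near the minimum, and a few were chosen after their values were seen (CYP3A4, CYP4A11, CYP4Z1, CYP7A1, CYP1A2, CYP11A1, CYP2W1, CYP19A1, CYP27B1, CYP27C1, SULT4A1, CYP2B6). Pathway genes are the 3 most abundant, the largest and the smallest ratio of a list, plus genes chosen after their values were seen. All 199 list genes were matched by symbol. Coordinates come from GENCODE 44 and promoters from RefSeq (GRCh38.p14), where 43 of 54 enzyme members had an entry. Leaving out each member's leading cell, the ranges of enterocyte markers, the longest shared promoter run and the comparison of transcript ends were added after seeing the data. Scrublet ran in scanpy 1.11.5 and TMM factors in edgeR 4.0.16. Values of a few genes, 1 member among them, are not reported here.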

Additional observations from a re-analysis of the deposited data

Results flagged for a closer look

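GSTO1 was the 1 member of the 37 measured in both cell classes whose 2 ratios lay on opposite sides of 0 with counting intervals that left 0 out, while 30 of the 37 had the same sign. In epithelial cells its level was 775 CPM for CNT and 740 for 3CK (log2 ratio -0.0676, interval -0.0845 to -0.0507). In mesenchymal cells it was at 310 and 561 CPM, a log2 ratio of 0.856 (interval 0.802 to 0.909). The epithelial difference is small, and the difference between the classes was not tested, since each condition has 1 library. The same counts over all genes were not made. An interval that leaves 0 out is common at this depth: in epithelial cells it lay below 0 for 6662 and above 0 for 6689 of 16840 genes. GSTO1 had 59768 and 52924 UMIs there.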

How the results depend on the processing

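No paired analysis was possible because each group has 1 library. Alternatives were no barcode filter, a stricter one (1000 genes, 10% mitochondrial UMIs), barcodes of at least 10000 UMIs, likely doublets removed (52 CNT and 16 3CK), TMM factors, a total without mitochondrial, ribosomal and the 50 most abundant genes, equal weight for each cell, a minimum of 10 CPM, a 1.5-fold threshold, EPCAM of at least 5, epithelial cells with collagen under 1, collagen of at least 10, and each member's leading cell left out. Leaving out the leading cell was chosen after seeing the data. Single ratios were recomputed for the 42 named members, and for 10 of them in mesenchymal cells. None of these that was 2-fold apart changed sign, and the 6 changes of sign were in members within 2-fold (CYP4V2, CYP2S1, CYP2R1 and CYP27A1). With a minimum of 10 CPM, 1 of 32 members was higher in the whole library, where 6.4% of all genes were. In epithelial cells 1 of 31 was higher, where 7.8% of all genes were, and the median was -1.26. In mesenchymal cells 4 of 17 were lower, where 9.36% of all genes were. At 1.5-fold, 7 of 57, 6 of 50 and 5 of 43 members were higher in the whole library, epithelial and mesenchymal cells, near or below the 13.2%, 16.5% and 11.2% of all genes. In mesenchymal cells TMM factors gave 5 higher members and moved the median of all genes from -0.21 to -0.02, and equal cell weight gave 29 lower members with a median of -1.39. The cause was not tested, beyond the smaller number of members that a higher minimum leaves. Under equal cell weight CYP27A1 in mesenchymal cells, within 2-fold in both cases, went from 0.41 to -0.97, SULT2A1 in epithelial cells from -4.26 to -3.53 and CYP1B1 in mesenchymal cells from 1.92 to 2.58. The mesenchymal values have the least depth, with 125 cells in 3CK.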
